A study of Sus scrofa with 30 samples.

Results

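Genes of the interleukin 1 beta pathway were followed in single pig embryos, and 7 of the 9 listed genes were found among the 13103 genes of the count table of all embryos. The list held 2 ligand genes (IL1B and IL1B2), the signaling receptor IL1R1 and its partner IL1RAP, the receptor antagonist IL1RN, the processing enzyme CASP1, and NFKBIA, NFKB1 and RELA of the NF-kB pathway. It was set by name, at a time when earlier results of these data were known. The gene symbols were matched to NCBI gene identifiers. IL1RN had no entry in the gene table used here, and CASP1 (identifier 397319) was not among the genes of the table, which the authors had filtered by a cutoff on CPM, the read counts scaled to a common library size. Neither gene was analysed here.

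The study compared 30 whole embryos, in groups of 5 per sex and day, from Day 8, Day 10 and Day 12 after insemination, the time when the pig blastocyst begins to elongate. All embryos came from German Landrace × Pietrain crossbred gilts whose cycles had been synchronized with altrenogest and gonadotropin, and 4 gilts were slaughtered on each day. Semen of the same Pietrain boar was used for every gilt, so that all embryos share their sire. There was no other treatment and no engineered allele. Embryos of both sexes were taken from the same gilt in each stage. The labels do not say which gilt an embryo came from, so that littermates can count as separate samples here. In RNA of a whole embryo, fewer cells that use a gene and less RNA per cell cannot be told apart.

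Interleukin 1 beta is a secreted signal best known from inflammation. It binds the receptor IL1R1, which then joins IL1RAP, and the pair recruits MYD88 and kinases that release NF-kB from its inhibitors. The pig carries a second gene, IL1B2, which is expressed by the conceptus around elongation and is held to signal to the uterine epithelium at the time when the mother recognizes the pregnancy. NFKBIA encodes the inhibitor that keeps NF-kB in the cytoplasm and is itself a target gene of NF-kB, while NFKB1 and RELA encode subunits of NF-kB.

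On the Sscrofa11.1 assembly, IL1B (397122) lies on chromosome 3 at 43670126 to 43677125 and IL1R1 (100626904) on chromosome 3 at 52192912 to 52334734. IL1RAP (100628318) lies on chromosome 13 at 127933239 to 128071984, NFKBIA (406188) on chromosome 7 at 64508119 to 64510754, NFKB1 (751869) on chromosome 8 at 118391010 to 118478927, and RELA (100135665) on chromosome 2 at 6594869 to 6602684. IL1B2 (396565) is not placed on a chromosome. The values are reads counted over each gene. IL1B and IL1B2 are related copies, and how reads that fit both were assigned is not given in the sources used here. Transcript lengths were not at hand, so that ratios between genes are given only to compare embryos or days and do not say which gene has more transcripts.

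Total counts per embryo ran from 6068212 to 34002508. A gene at 3 counts or fewer was taken as at the floor, which was at most 0.434 CPM in any embryo. All 9 trophectoderm, all 7 epiblast and 7 of 8 hypoblast markers were in the table. Of 15 leukocyte markers 6 were in it, and PTPRC, CD14, CD68, CD163 and CSF1R were not. With the limits of the study, a change between days was called when the log2 fold change went beyond 1 and the false discovery rate (FDR) lay under 0.001. Both came from the edgeR quasi-likelihood F test with Benjamini-Hochberg adjustment.

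Both ligand genes peaked on Day 10. IL1B2 rose 4493-fold from Day 8 to Day 10 and fell by 6.77 on the log2 scale to Day 12, where it still lay above its Day 8 level. IL1B was at the floor on Day 8, was at 529 CPM or more in 8 of 10 Day 10 embryos, and was back at the floor in most Day 12 embryos. The receptor gene IL1RAP rose from Day 8 to Day 10, and NFKB1 rose from Day 10 to Day 12. The IL1RAP call was lost without 4 of the Day 10 embryos, which were set apart after the values had been seen and include its highest values. From Day 8 to Day 10, 3 of the 7 genes were called, all higher, beside 14.1% of all genes in either direction and 9.88% higher. From Day 10 to Day 12, 2 were called lower and 1 higher, beside 23.3% of all genes, 8.39% lower and 14.9% higher. Over the whole interval 2 were called higher, beside 32.5% of all genes, 10.4% lower and 22% higher. The 3 comparisons share embryos. When each day was filtered alone, the authors' cutoff kept IL1B on Day 10 only, and IL1R1 and IL1RAP on Days 10 and 12. Their calls against the days without them can be favoured by that filter.

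**Figure D1:**
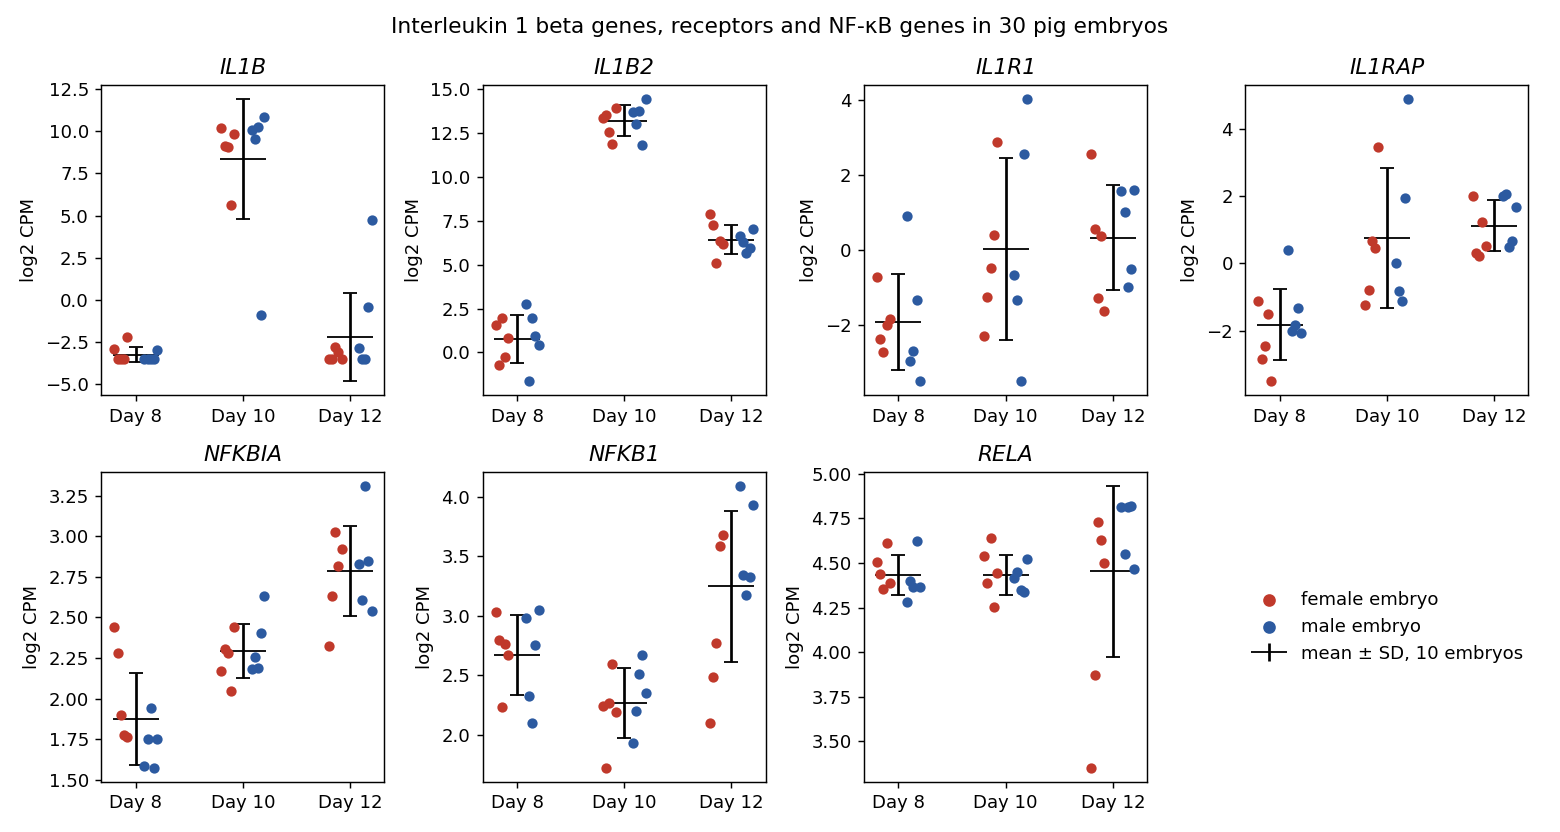
Log2 CPM of the 7 genes in each embryo (points, female in red and male in blue), with the mean and SD of the 10 embryos of each day. IL1B2 had its 10 Day 10 embryos above all embryos of Days 8 and 12, and IL1B had 9 of its 10 there, with d10_m_435 lower.

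IL1B2 had 0.237 to 6.77 CPM on Day 8, with a median of 1.76. It had 3637 to 22012 CPM on Day 10, with a median of 11084, and 33.4 to 235 CPM on Day 12, with a median of 80.5. The 3 days did not overlap in any embryo. Taken singly, the first interval was without overlap in 22% of all genes and the second in 16.6%. Day 12 against Day 8 was without overlap in 31.7%. The share of genes with all 3 days apart was not counted. The mean was 2.35 ± 2.01 CPM on Day 8, 10811 ± 5731 CPM on Day 10 and 99.4 ± 59.5 CPM on Day 12 (SD, n = 10 each). The log2 fold change of IL1B2 was 12.13 (SE 0.62, FDR 6.24e-16) from Day 8 to Day 10 and -6.77 (SE 0.50, FDR 5.70e-13) from Day 10 to Day 12. Day 12 lay above Day 8 by 5.36 on the log2 scale (SE 0.48, FDR 2.59e-11). Within Day 10 the highest embryo, the male d10_m_453, had 6.05 times the IL1B2 CPM of the lowest, the male d10_m_435.

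IL1B was counted 4 times in all among the 222044953 counts of the 10 Day 8 embryos, and 7 of them had no count. On Day 10 the 6 embryos d10_f_315, d10_f_317, d10_f_336, d10_m_318, d10_m_321 and d10_m_333 had 529 to 1240 CPM, and d10_f_454 and d10_m_453 had 909 and 1827 CPM. The 2 remaining embryos stood far below them. The female d10_f_433 had 50.3 CPM (1106 counts) and the male d10_m_435 had 0.456 CPM (10 counts). These 2 embryos also had the lowest IL1B2, 3685 and 3637 CPM, but for IL1B2 the next embryo, d10_f_336, followed at 5957 CPM.

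On Day 12 IL1B had 0 or 1 count in 8 of 10 embryos. The male d12_m_286 had 0.669 CPM (23 counts) and the male d12_m_307 had 26.6 CPM (688 counts), so that 1 embryo gave most of the 714 counts of the day. Day 10 and Day 8 did not overlap for IL1B, whereas d10_m_435 lay below the 2 highest Day 12 embryos.

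The Day 10 mean of IL1B, 809 ± 557 CPM (SD, n = 10), was 46756 times the pooled Day 8 level of 0.0173 CPM. The exact Poisson interval of that ratio was 18261 to 171601, and it covers the counting error of the pooled Day 8 count only. Both calls of IL1B passed the test, with an FDR of 1.88e-08 for the rise and 4.63e-07 for the fall. The cutoff of the authors kept IL1B on Day 10 and not on Day 8 or Day 12. It can thus have entered through Day 10 alone, so that these FDRs are no independent support. The fitted fold of the rise depends on the prior for empty libraries and is not given as a size. The log2 fold change to Day 12 was -8.11 (SE 1.15) with all embryos and -12.58 without d12_m_307. Day 12 against Day 8 was not called for IL1B (log2 fold change 6.99, FDR 0.00163), and the value fell to 2.52 (FDR 0.284) without d12_m_307. It was called by DESeq2 (7.10, FDR 7.21e-06), with only the 2 days in the fit (6.91, FDR 0.000988), without the 4 Day 10 embryos numbered above 400 (FDR 0.000549) and without d10_f_433 and d10_m_435 (FDR 0.000303), all with d12_m_307 included.

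**Figure D2:**
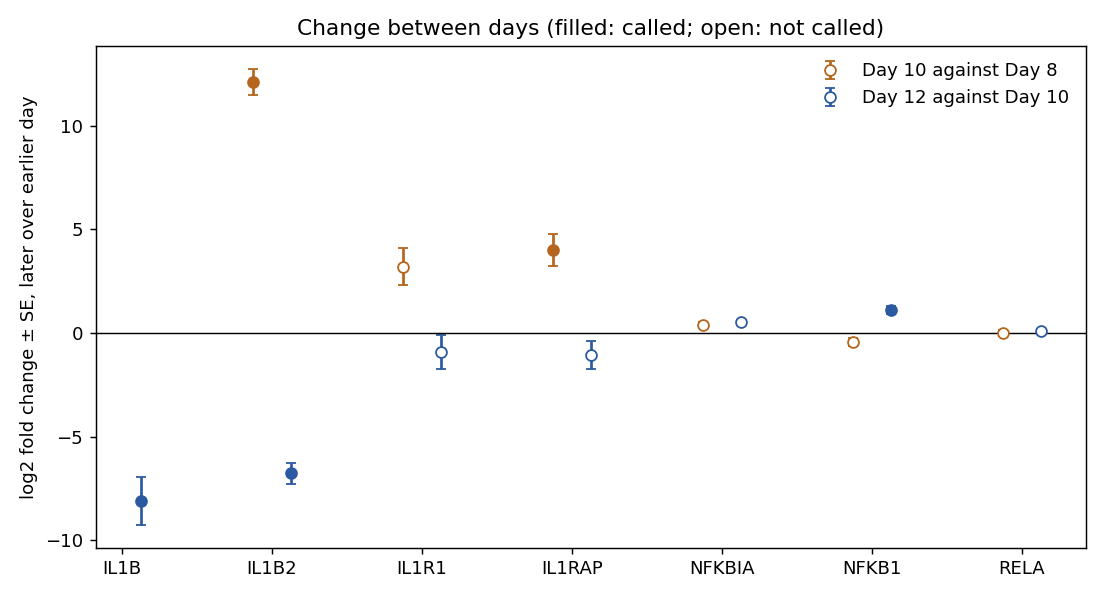
Log2 fold change with its SE for each gene, later day over earlier day (orange, Day 10 against Day 8, and blue, Day 12 against Day 10), with filled points for called changes. IL1B against Day 8 is not drawn, since every Day 8 embryo was at the floor. IL1B2 stands at 12.13 and -6.77, and RELA at 0.00 and 0.08.

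Leukocytes also make interleukin 1 beta. The summed level of the 6 leukocyte markers in the table was 42.5 to 64.4 CPM on Day 8, 34.0 to 46.1 CPM on Day 10 and 104 to 388 CPM on Day 12. On Days 8 and 10 most of the sum was ITGAM (means 42.1 and 34.8 CPM). Only FCER1G of the 6 was called by edgeR from Day 8 to Day 10, beside 14.1% of all genes, and it fell from 11.4 to 1.76 CPM. DESeq2 and the robust GLM each called 3 of the 6. AIF1 (1.22 and 2.92 CPM), LYZ (0.0617 and 0.491 CPM), S100A8 and S100A9 had higher means on Day 10 without a call by edgeR. The median log2 fold change of the list was 1.95. The part of these cells in the ligand levels was not tested. The summed trophectoderm markers were 21672 to 26576 CPM on Day 8, 36378 to 53921 CPM on Day 10 and 11331 to 34799 CPM on Day 12. The sum was highest on Day 10 with no overlap and was mostly the keratin genes KRT8 and KRT18 (means 24502 and 16629 CPM on Day 10). Of the 9 markers 2 were called higher from Day 8 to Day 10, beside 9.88% of all genes. GATA2, GATA3, TFAP2C and TEAD4 had lower means on Day 10 without a call. Their part in the IL1B2 level was not tested.

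The share of IL1B in the counts of both ligand genes was not fixed. It was 4.56% to 10.0% in 8 of the Day 10 embryos. In d10_f_433 it was 1.35% (95% exact binomial interval 1.27 to 1.43) and in d10_m_435 0.0125% (0.00602 to 0.0231), outside the intervals of the others. On Day 12 it was 0% to 1.09% in 9 embryos and 17.0% (15.8 to 18.2) in d12_m_307. Day 8 counts were too few to give a share, with upper bounds from 1.48% to 45.9%. The intervals cover counting error only.

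**Figure D3:**
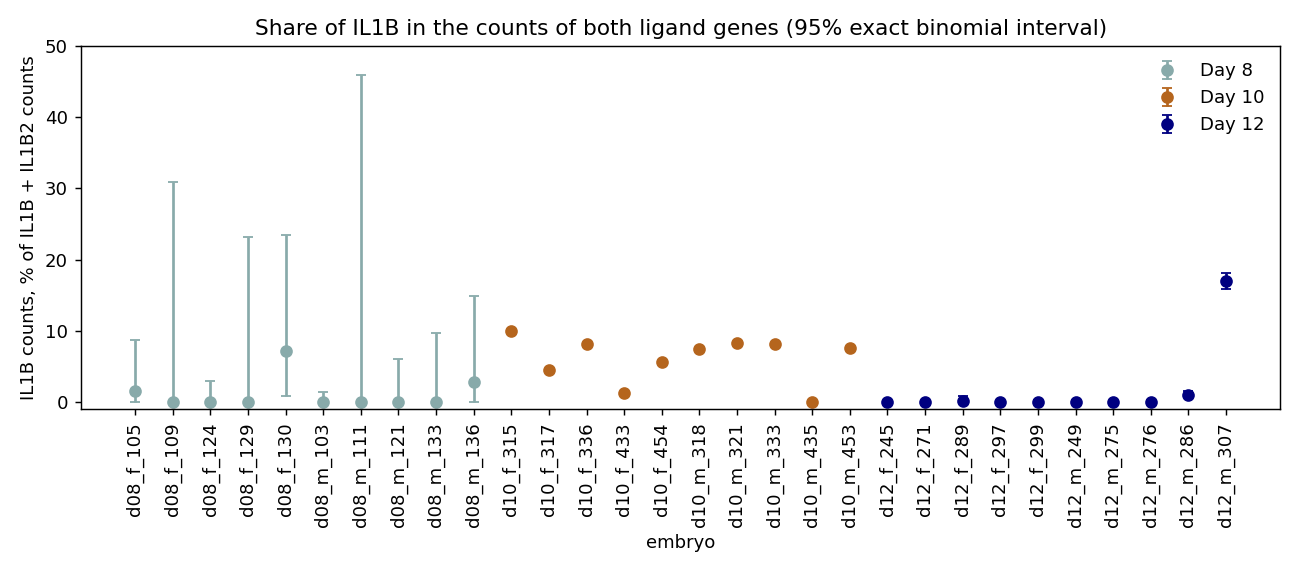
IL1B counts as a percentage of IL1B plus IL1B2 counts in each of the 30 embryos, with 95% exact binomial intervals. Day 10 embryos lie between 4.56% and 10.0% apart from d10_f_433 and d10_m_435, and d12_m_307 stands at 17.0% among Day 12 embryos at or near 0.

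As a log2 ratio, IL1B2 stood above IL1B by 4.82 ± 2.90 on Day 10 and by 8.61 ± 2.63 on Day 12 (SD, n = 10 each, prior count of 2). The difference of 3.79 gave p = 0.00854 in a two-sided permutation test with 100000 resamples. In the 5 female embryos a day the difference was 5.55 (p = 0.00794, the smallest an exact permutation test of 5 against 5 can give), and in the 5 male embryos a day it was 2.04 (p = 0.444, exact permutation test). The males included d10_m_435 and d12_m_307. Most Day 12 values had 0 or 1 IL1B count, so that their ratio depends on the prior count. With a prior count of 0.5 the difference was 5.09 and with 5 it was 2.84.

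IL1R1, the receptor that binds the ligand, had 0 to 1.78 CPM on Day 8 (median 0.131), 0 to 16.1 CPM on Day 10 (median 0.581) and 0.235 to 5.79 CPM on Day 12 (median 1.29). The 3 days overlapped. On Day 8, 7 of 10 embryos were at the floor, and the male d08_m_103 stood apart with 1.78 CPM, where the other 9 had at most 0.516. The change from Day 8 to Day 10 was not called (log2 fold change 3.21, SE 0.89, FDR 0.00288), and was called without d08_m_103 (4.33, FDR 0.000342), by DESeq2 (3.32, FDR 0.000172) and by the robust GLM (2.66, FDR 0.000501). Day 12 against Day 10 gave -0.93 (FDR 0.330).

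IL1RAP, the partner that the bound receptor needs for signaling, had 0 to 1.23 CPM on Day 8 (median 0.176), 0.339 to 29.4 CPM on Day 10 (median 1.10) and 1.08 to 4.13 CPM on Day 12 (median 1.87). It rose from Day 8 to Day 10 (log2 fold change 4.02, SE 0.78, FDR 6.38e-05), although the days overlapped. It was not called in either sex alone, with a value of 4.14 (FDR 0.00374) in the females. Over the whole interval it was called at the limit (2.94, SE 0.76, FDR 0.000981), and not without d12_f_245 (2.84, FDR 0.00171) or without d12_m_307 (2.88, FDR 0.00162). Day 12 against Day 10 gave -1.08 (SE 0.67, FDR 0.166).

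The receptor values on Day 10 followed the numbers in the embryo names. The labels give 6 Day 10 embryos a number under 400 and 4 a number above it, without saying what the numbers mean, and a litter, a day of collection and a number cannot be told apart. IL1R1 had 0 to 0.623 CPM in the 6 embryos numbered under 400. It had 1.23 CPM in d10_f_433, 5.80 in d10_m_435, 7.20 in d10_f_454 and 16.1 in d10_m_453. The 2 sets, split after the values had been seen, did not overlap for IL1R1. The share of all genes for which they do not overlap was not counted, so that this does not set IL1R1 apart.

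IL1RAP had 0.339 to 1.51 CPM in the 6 embryos and 1.27, 3.79, 10.9 and 29.4 CPM in the same 4, with d10_f_433 inside the range of the 6. In an edgeR fit of the 4 against the 6, IL1R1 was higher by 4.58 on the log2 scale (SE 0.75, FDR 0.0110) and IL1RAP by 4.05 (SE 0.76, FDR 0.0250), beside 1.25% of the 11675 genes of the Day 10 table at an FDR under 0.05. With sex as a term the FDR was 0.0248 for IL1R1 and 0.0570 for IL1RAP. This comparison was added after the values had been seen. IL1B (log2 fold change -0.33), IL1B2 (0.09) and NFKBIA (0.18) were not called in it.

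The receptors' changes between days were also fitted without these 4 embryos. The 4 hold the highest IL1R1 and IL1RAP values of Day 10. A lower Day 10 level without them was thus set by the choice, and the values only show how far the changes rested on them. Without them IL1R1 gave a log2 fold change of -0.11 (FDR 0.924) and IL1RAP of 1.19 (FDR 0.0694) from Day 8 to Day 10, and from Day 10 to Day 12 they gave 2.42 (FDR 0.0167) and 1.76 (FDR 0.00731). The summed trophectoderm markers were 36378 to 41341 CPM in the 4 and 45731 to 53921 CPM in the 6, without overlap, and the leukocyte markers 34.7 to 46.1 and 34.0 to 44.5 CPM. The summed uterine epithelium markers (5 of 9 in the table, mostly UPTI) were highest in d10_f_454 (1572 CPM) and d10_m_453 (1301 CPM) and at most 1025 CPM in the other 8, and these 2 embryos had the highest IL1R1, IL1RAP and NFKBIA. PGR, PAX8, SERPINA14 and LTF of the uterine epithelium list were not in the table. UPTI had means of 310, 896 and 4053 CPM on Days 8, 10 and 12, so that its level also went with the day. The part of the trophectoderm, leukocyte and uterine epithelium markers in the receptor and NFKBIA values was not tested.

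**Figure D4:**
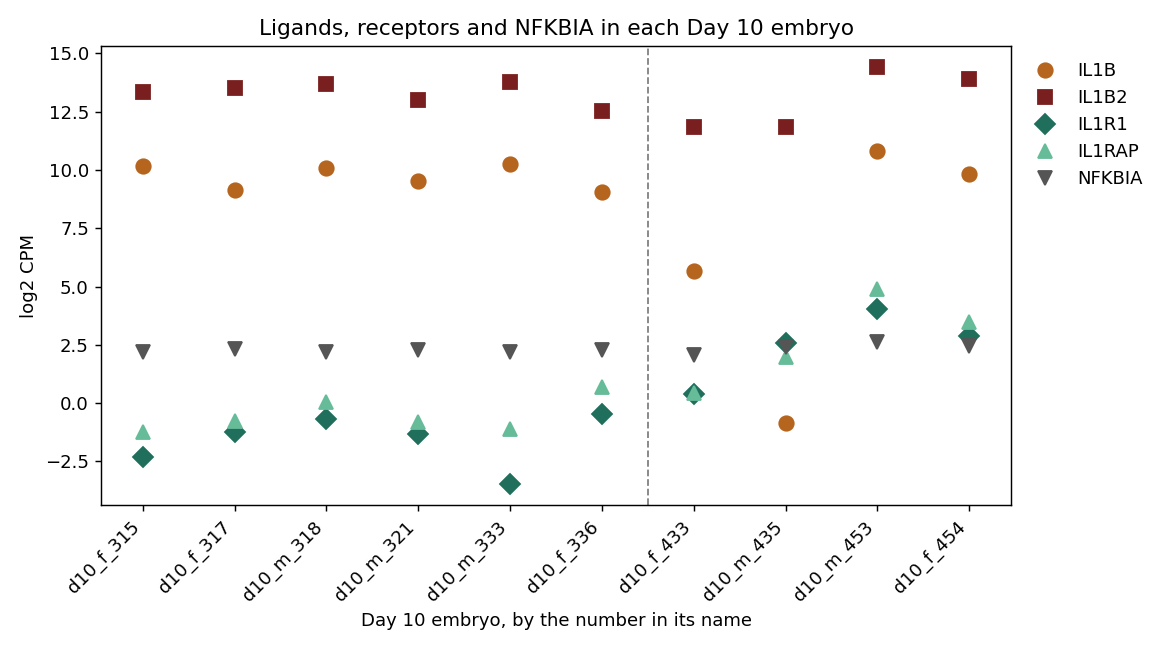
Log2 CPM of the ligand genes, the receptors and NFKBIA in each Day 10 embryo, ordered by the number in its name, with a dashed line between numbers under and above 400. IL1R1 is highest in the 4 embryos to the right of the line, where IL1B falls to 50.3 CPM in d10_f_433 and 0.456 CPM in d10_m_435.

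The mean of NFKBIA was higher on each later day. The gene had 2.89 to 5.35 CPM on Day 8, 4.04 to 6.11 CPM on Day 10 and 4.92 to 9.84 CPM on Day 12, with overlap between all days. The means were 3.65 ± 0.803, 4.84 ± 0.589 and 6.93 ± 1.38 CPM (SD, n = 10 each). Its log2 fold change was 0.41 (SE 0.13, FDR 0.00778) from Day 8 to Day 10 and 0.52 (SE 0.13, FDR 0.000756) from Day 10 to Day 12, which passed the FDR but not the fold limit. Over the whole interval the value was 0.93 (SE 0.13, FDR 1.57e-07), again under the fold limit.

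NFKB1, whose product is processed to the p50 subunit, had 4.20 to 8.17 CPM on Day 8, 3.22 to 6.30 CPM on Day 10 and 4.20 to 17.0 CPM on Day 12. It rose from Day 10 to Day 12 (log2 fold change 1.09, SE 0.19, FDR 1.46e-05), with the Day 12 females d12_f_245 and d12_f_271 inside the Day 10 range and the other 8 above it. The value from Day 8 to Day 10 was -0.42 (FDR 0.0659). The rise was not called in the female embryos alone (0.76, FDR 0.0292). The summed leukocyte markers were higher on Day 12 than on Day 10 as well. Within Day 12 their sum was highest in d12_f_245 (388 CPM) and d12_f_271 (194 CPM), which had the lowest NFKB1 of the day. It was lowest in d12_m_249 (104 CPM), which had the highest NFKB1. The part of these markers in the rise of NFKB1 was not tested.

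RELA, the subunit with the main activation domain, had means of 21.6 ± 1.75, 21.6 ± 1.70 and 22.8 ± 6.05 CPM. Its log2 fold change was 0.00 (SE 0.12) from Day 8 to Day 10 and 0.08 (SE 0.12, FDR 0.568) from Day 10 to Day 12. The 2 lowest values of RELA were in the Day 12 females d12_f_245 (10.1 CPM), the smallest library, and d12_f_271 (14.5 CPM), whereas no other embryo of any day was under 18.9 CPM.

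The genes also differed in how much embryos of a day varied. On Day 10 the SD of log2 CPM was 3.55 for IL1B, 2.42 for IL1R1 and 2.07 for IL1RAP, larger than that of 99.9%, 99.8% and 99.6% of all genes. It was 0.87 for IL1B2, larger than that of 92.9%. NFKBIA (0.17) and RELA (0.11) were steadier than most genes, with 19.5% and 5.69% of genes below them. Counts in these embryos were 0 to 445 for IL1R1, 6 to 815 for IL1RAP and 78 to 169 for NFKBIA.

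Between the sexes no gene of the list was called. Under an FDR of 0.05, 0 of 4 genes in the Day 8 table passed the edgeR quasi-likelihood test, 0 of 7 on Day 10 and 0 of 6 on Day 12, beside 0.658%, 0.223% and 0.123% of the genes of each table. None had an unadjusted p under 0.05, and none was called by DESeq2 or by the robust GLM. IL1B2 gave log2 differences, female minus male, of -0.54 (SE 0.72) on Day 8, -0.38 (SE 0.47) on Day 10 and 0.50 (SE 0.47) on Day 12. Differences of this size were not detectable with 5 embryos per sex.

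Whether the change between days differed between the sexes was tested as an interaction, and 0 of 7 genes passed in either interval, as did 0% of all genes. At an unadjusted p under 0.05 there were 0 genes of the list from Day 8 to Day 10 and 1 from Day 10 to Day 12. That gene was IL1B, with a female minus male difference in log2 change of -7.04 (SE 2.79, FDR 0.208 in the edgeR quasi-likelihood test). The males d10_m_435 and d12_m_307 are in this comparison.

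The other genes of the pathway were read from lists named by role, and each list is described by its counts. In the ligand list 3 of 9 genes were in the table. Besides the IL1B genes this was IL18, a relative that CASP1 also processes, with 0.786 ± 0.481, 0.341 ± 0.352 and 0.330 ± 0.223 CPM on the 3 days. It was not called by the edgeR quasi-likelihood test, and from Day 8 to Day 10 the robust GLM called all 3 ligand genes. In the receptor list 3 of 8 were in the table. Besides the members this was IL18R1, the receptor of IL18, which edgeR did not call in any comparison.

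Inhibitors and decoys had 4 of 7 genes in the table, and 1 of them was called in each interval, beside 14.1% and 23.3% of all genes. SIGIRR, a receptor of the family that dampens signaling, rose from Day 8 to Day 10 (29.3 ± 4.78 to 86.3 ± 23.3 CPM, log2 fold change 1.56, FDR 7.22e-09). TOLLIP, an adaptor that restrains the IRAK kinases, fell from Day 10 to Day 12 (52.2 ± 18.5 to 18.2 ± 3.11 CPM, log2 fold change -1.52, FDR 4.72e-10). The median log2 fold change of the 4 genes was 1.22 from Day 8 to Day 10, beside 0.03 over all genes.

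Of 16 inflammasome and processing genes 3 were in the table, and CASP1, CASP4, PYCARD and NLRP3 were not. Of the 3 genes 2 were called from Day 8 to Day 10, beside 14.1% of all genes. CASP8, a caspase that can also cleave the interleukin 1 beta precursor, rose (1.02 ± 0.538 to 2.56 ± 1.29 CPM, log2 fold change 1.31, FDR 0.000169). NEK7, a kinase that binds NLRP3, rose with it (34.3 ± 5.05 to 73.9 ± 7.66 CPM, log2 fold change 1.11, FDR 3.08e-10). From Day 10 to Day 12, 0 of 3 were called by edgeR, DESeq2 or the robust GLM, beside 23.3% of all genes by edgeR, and 2 had an unadjusted p under 0.05.

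The relay from the receptor to NF-kB was complete in the table, with 15 of 15 genes. From Day 8 to Day 10, 2 of 15 were called, beside 14.1% of all genes, and 7 had an unadjusted p under 0.05. The ubiquitin ligase gene PELI1 rose (13.4 ± 1.22 to 39.6 ± 20.6 CPM, log2 fold change 1.57, FDR 4.05e-06). Its relative PELI2 fell (2.70 ± 0.615 to 1.13 ± 0.397 CPM, log2 fold change -1.25, FDR 6.37e-06). From Day 10 to Day 12, 0 of 15 were called by edgeR, DESeq2 or the robust GLM, beside 23.3% of all genes by edgeR, 8 had an unadjusted p under 0.05, and the log2 fold changes ran from -0.54 to 0.66. The median of the list was -0.06 and -0.10 in the 2 intervals, beside 0.03 and 0.04 over all genes.

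All 14 genes of the IKK and NF-kB list were in the table. From Day 8 to Day 10, 1 was called, beside 14.1% of all genes. The NF-kB subunit REL rose (1.35 ± 0.491 to 2.96 ± 0.643 CPM, log2 fold change 1.13, FDR 1.97e-05). From Day 10 to Day 12, 3 of 14 were called, all higher, beside 14.9% of all genes called higher. Beside NFKB1 these were the inhibitor NFKBIE (8.19 ± 1.31 to 24.9 ± 5.24 CPM, log2 fold change 1.60, FDR 1.63e-12) and BCL3, a nuclear partner of NF-kB (0.773 ± 0.279 to 2.21 ± 0.937 CPM, log2 fold change 1.49, FDR 4.10e-05). The median of the list was 0.16 and 0.34, beside 0.03 and 0.04 over all genes.

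Of 28 genes known as targets of NF-kB 15 were in the table, while CXCL8, IL6, TNF and CCL2 were not. From Day 8 to Day 10, 3 of the 15 were called higher and 2 lower, beside 9.88% and 4.2% of all genes. TNFAIP3, a feedback inhibitor, rose (5.51 ± 1.03 to 16.2 ± 6.73 CPM, log2 fold change 1.55, FDR 5.83e-06), as did IER3, an immediate early gene (0.638 ± 0.239 to 1.80 ± 1.48 CPM, FDR 0.000357). PTGS2, the inducible prostaglandin synthase, fell (815 ± 151 to 132 ± 60.9 CPM, log2 fold change -2.63, FDR 5.07e-06), as did the proteoglycan gene SDC4 (-1.69, FDR 3.99e-12).

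From Day 10 to Day 12, 4 of the 15 targets were called higher and 4 lower, beside 14.9% and 8.39% of all genes. SAA3, an acute phase gene, rose from 0.122 ± 0.227 to 2.09 ± 1.35 CPM (log2 fold change 4.04, FDR 1.87e-06). ICAM1, an adhesion molecule of the cell surface, rose from 2.03 ± 0.570 to 23.4 ± 9.79 CPM (3.53, FDR 7.70e-14). LIF, a cytokine of implantation, rose from 1.22 ± 0.464 to 7.93 ± 3.40 CPM (2.70, FDR 2.69e-09), while PTGES, a prostaglandin E synthase, fell from 816 ± 298 to 79.3 ± 48.1 CPM (-3.37, FDR 2.07e-12). TNFAIP3 fell (-2.24, FDR 1.03e-08) and PTGS2 rose (2.09, FDR 6.69e-05). Targets thus moved in both directions in either interval, and the median of the list was 0.54 and 0.52, beside 0.03 and 0.04 over all genes.

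Within Day 10, the 10 pairs among IL1B, IL1B2, IL1R1, IL1RAP and NFKBIA were related across the 10 embryos by log2 CPM, with two-sided permutation tests of 100000 resamples adjusted over the 10 pairs. By Pearson's r 4 pairs passed an adjusted p of 0.05, and by Spearman's rho 2. Within the 6 embryos numbered under 400, 0 pairs passed by exact permutation, and 2 had an unadjusted p under 0.05 (IL1R1 with IL1RAP and, inversely, IL1B with NFKBIA). The 4 embryos above 400 are too few for a relation of their own.

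The 2 receptor genes went together. IL1R1 and IL1RAP gave r = 0.95 (permutation p = 1e-05, the smallest that 100000 resamples can give, adjusted p = 0.0001) and rho = 0.98 (adjusted permutation p = 0.0003). An r of this size with IL1R1 was reached by 0.237% of all genes. Without d10_f_454 and d10_m_453, the embryos farthest from the median of IL1R1, r was 0.93 (adjusted p = 0.00347, exact permutation). Within the 6 embryos it was 0.79 (adjusted p = 0.243, exact permutation), and r stayed between 0.94 and 0.97 whichever embryo was left out.

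The 2 ligand genes gave r = 0.79 (permutation p = 0.00012, adjusted p = 0.0006) and rho = 0.85 (adjusted permutation p = 0.0138). An r of this size was reached by 1.74% of all genes with IL1B and by 5.00% with IL1B2. Without d10_f_433 and d10_m_435 r was again 0.79. The adjusted p was 0.0514 with these 2 left out of all pairs (exact permutation). It was 0.103 when each pair left out the 2 embryos farthest from the median of its first gene (exact permutation). Within the 6 embryos r was 0.68 (adjusted p = 0.367, exact permutation). In the plot of the pairs d10_f_433 and d10_m_435 lie far to the left of the others.

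By Pearson's r NFKBIA was related to both receptors. With IL1RAP it gave r = 0.83 (permutation p = 0.00294, adjusted p = 0.00980) and rho = 0.71 (adjusted permutation p = 0.0898), and with IL1R1 r = 0.75 (permutation p = 0.0104, adjusted p = 0.0261) and rho = 0.62 (adjusted permutation p = 0.152). For the pair with IL1RAP, an r of this size was reached by 4.39% of all genes with IL1RAP and 0.977% with NFKBIA. For the pair with IL1R1 it was reached by 5.56% with IL1R1 and 4.02% with NFKBIA. Both relations rested on the embryos d10_f_454 and d10_m_453, without which r was 0.40 and 0.38. Within the 6 embryos r was 0.34 for IL1RAP and 0.50 for IL1R1. The whole Day 10 range of NFKBIA was 4.04 to 6.11 CPM, on 78 to 169 counts.

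No relation of the ligands to NFKBIA or to the receptors passed the test over the 10 embryos, and whether they differ from those of the receptors was not tested. With NFKBIA, IL1B gave r = 0.01 (permutation p = 0.978) and IL1B2 r = 0.45 (permutation p = 0.189, adjusted p = 0.379). IL1B gave r = -0.33 with IL1R1 and -0.11 with IL1RAP, and IL1B2 gave 0.02 and 0.24. Within the 6 embryos IL1B and NFKBIA gave r = -0.96 (exact permutation p = 0.0167, adjusted p = 0.167). The embryo with the least IL1B, d10_m_435, came after d10_m_453 and d10_f_454 in both receptors and in NFKBIA.

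**Figure D5:**
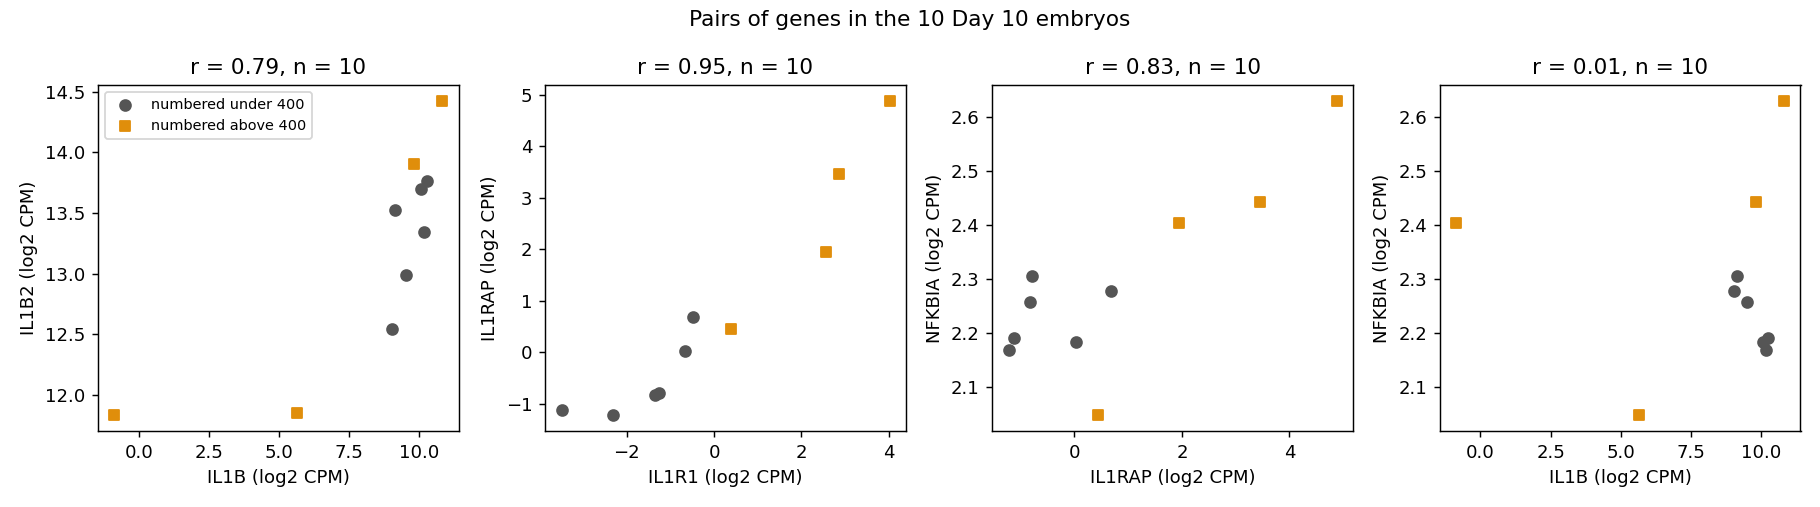
Log2 CPM of 4 pairs of genes in the 10 Day 10 embryos, with embryos numbered under 400 as grey circles and above 400 as orange squares. The receptors go together (r = 0.95), the ligands do so with 2 embryos far to the left (r = 0.79), NFKBIA is highest where IL1RAP is highest (r = 0.83), and IL1B and NFKBIA give r = 0.01.

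Day 10 embryos also differed in how far their whole expression profile had moved from that of Day 8 (0%) towards that of Day 12 (100%). The measure used 13096 genes, without the members but with the unplaced genes that follow IL1B2, given below. This position was 26.1% to 53.7%, with d10_f_454 at 51.1% and d10_m_453 at 53.7% and the other 8 at most at 39.9%. Over the 10 embryos it gave r = 0.79 with NFKBIA, 0.75 with IL1RAP and 0.72 with IL1B2 (adjusted p = 0.0338 each over 5 relations, permutation test), 0.53 with IL1R1 and 0.44 with IL1B. By Spearman's rho it was 0.77 with IL1B2 and 0.75 with IL1B (adjusted permutation p = 0.0439 each), 0.48 with NFKBIA, 0.22 with IL1RAP and 0.13 with IL1R1. The share of all genes that follow the position as closely was not counted. These values thus do not set the listed genes apart from other genes.

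Without those 2 embryos r was 0.25 for NFKBIA, -0.33 for IL1RAP and 0.54 for IL1B2, so that those of NFKBIA and IL1RAP rested on them. The r of IL1B2 was also lower without them. Its rho had passed the test over all 10 with those 2 embryos included, and no test was run without them. Within the 6 embryos numbered under 400 r was -0.21 for NFKBIA, 0.05 for IL1RAP and -0.03 for IL1B2. On Day 8 the position was 8.10% in d08_m_103 and at most 2.28% in the others. This was the embryo with the highest IL1R1, IL1RAP and IL1B2 (6.77 CPM, at most 3.82 in the others), and IL1B had no count in it. On Day 12 the position was 90.3% in d12_m_307, the embryo with the most IL1B, and 97.7% to 107% in the others.

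The genes most like IL1B over the 30 embryos, by Pearson's r of log2 CPM, were LOC110258272 (0.96), ANKRD33B (0.94), the betaine transporter gene SLC6A12 (0.93), the phospholipase gene PAFAH2 (0.93) and the hyaluronidase gene SPAM1 (0.93). The 30 points share the 3 days and the libraries. LOC110258272 had a mean of 28.8 ± 18.5 CPM on Day 10 and 0 and 0.0243 CPM on Days 8 and 12. Within Day 10 other genes led, with n = 10: CAP1 (0.95), PTI, MREG, LOC100158011 and WBP1 (0.92 each). CAP1, an actin regulator, ran only from 948 to 1131 CPM in these embryos.

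The genes most like IL1B2 over the 30 embryos were LOC110258125, LOC110258579, LOC110255300, LOC110258578 and LOC110258124, with r of 0.99 or more, and within Day 10 LOC110258445, LOC110255300, LOC110258125, LOC110258579 and LOC110255255. In all, 9 genes reached r = 0.98 over the 30 embryos, and all 9 are unplaced on the assembly as IL1B2 is, beside 262 of the 13103 genes of the table. Their spans, with that of LOC110255255, were 5451 to 6153 bases. Some are annotated as protein coding and others, such as LOC110258124 and LOC110258445, as pseudogenes.

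Their ratio to IL1B2 over the Day 10 embryos was narrow for some and wider for others. LOC110258125 had 47.2% to 54.9% of the CPM of IL1B2, LOC110255300 61.8% to 70.3%, LOC110258445 35.8% to 40.3% and LOC110258124 8.24% to 11.2%. Wider ranges were those of LOC110259156 (21.1% to 36.9%), LOC110258582 (55.3% to 77.1%) and LOC110258095 (48.5% to 65.8%). With IL1B, r of the first 4 within Day 10 was 0.79, 0.77, 0.78 and 0.78. Whether they share sequence or reads with IL1B2 was not tested, since no sequence was at hand. The share of IL1B given above refers to the 2 named genes only.

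The genes most like NFKBIA over the 30 embryos were SH3YL1 (0.92), LOC110259471 (0.92), the myosin gene MYO1D (0.91), the oxysterol hydroxylase gene CYP39A1 (0.91) and the sodium iodide symporter gene SLC5A5 (0.90). All 5 had their lowest mean on Day 8 and their highest on Day 12, as NFKBIA had. SH3YL1 had means of 12.0 ± 2.47, 30.4 ± 9.78 and 62.9 ± 21.0 CPM on the 3 days.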

How the data were processed

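Members and gene lists were chosen with earlier results of these data known. Single-end reads of stranded mRNA libraries were trimmed with Trim Galore, mapped to Sscrofa11.1 with the NCBI annotation and filtered by a CPM cutoff by the authors. The aligner, counter and cutoff are not given in the sources used here. The deposited values are raw counts per NCBI gene, not normalized, in a table of all embryos (13103 genes) and tables of Days 8, 10 and 12 (11405, 11675 and 12220). IL1B was not in the Day 8 and Day 12 tables, nor IL1R1 and IL1RAP in the Day 8 table.

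CPM used TMM factors, log2 CPM a prior count of 2. Days were tested in 1 fit of 3 groups with the edgeR quasi-likelihood F test (R 4.3.3, edgeR 4.0.16, limma 3.58.1, robust), Benjamini-Hochberg over all genes. Sexes were tested per day table (FDR under 0.05), interactions in 6 groups. The SE is the log2 fold change over the square root of F. Alternatives were RLE factors, library size alone, 10 counts in 5 embryos, DESeq2 1.42.0, the robust GLM that the study names, a fit of only the days compared, a sex term, females or males alone, other prior counts and embryos left out. Relations and ratios used Python 3.11.15 with scipy 1.17.1, numpy 2.4.6 and pandas 2.3.3, and figures matplotlib 3.10.9. The scripts were tested on simulated data. Total counts were 6068212 to 34002508. Replicates differed beyond sampling noise in all 60 pairs within groups (chi-square per degree of freedom at least 7.64).

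The named pathway genes were up to 4 per list with the largest log2 fold change among those called, in each of the first 2 intervals, and up to 5 genes most like IL1B, IL1B2 and NFKBIA. IL18, IL18R1 and the second-interval values of TNFAIP3 and PTGS2 fall outside this rule and were chosen after their values were seen, as were the marker genes given by name. The 9 genes past r = 0.98 and the fit of embryos above against under 400 were added after the values were seen.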

Additional observations from a re-analysis of the deposited data

Results flagged for a closer look

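Groups of 5 and of 10 embryos were checked for a single embryo far from the rest, by the gap to its nearest neighbour over the range of the group in log2 CPM (Dixon's ratio). Of 63 groups 6 passed, and all 6 were in IL1B. The usual rate of about 1 in 20 by chance is no guide here, since the groups of 5 lie within the groups of 10. Many IL1B values of Days 8 and 12 were also tied, with no count. On Day 10 the male d10_m_435 was low (10 counts, 0.456 CPM, nearest 50.3), with a ratio of 0.558 among all 10 embryos and 0.888 among the 5 males. The female d10_f_433 was low among the 5 females (50.3 CPM, nearest 529), with a ratio of 0.751. On Day 12 the male d12_m_307 was high (688 counts, 26.6 CPM, nearest 0.669), with a ratio of 0.625. The 2 Day 8 ratios rested on 1 or 2 counts, d08_f_130 among all embryos with 0.523 and d08_m_136 among the males with 1.0, and are at the floor.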

How the results depend on the processing

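No paired analysis by gilt was possible because the labels do not say which gilt an embryo came from. No embryo number is shared between the groups. Of 621 values under alternatives, 107 of those for the comparisons and 436 of those for single genes or pairs kept their direction and side of the threshold, 9 and 26 kept the direction and lost the threshold, 11 for single genes or pairs gained it, and 32 changed sign. The cause of a change was not tested. The genes called from Day 8 to Day 12 numbered 1 in place of 2 with RLE factors, in female embryos alone, without d12_f_245 and without d12_m_307. The related pairs on Day 10 numbered 4, 0 within the 6 embryos numbered under 400, 1 with the 2 farthest embryos left out, and 2 to 4 with each embryo left out in turn. The ligand ratio differed by 2.04 in males alone.

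The changes of sign were as follows. Without the 4 embryos above 400, IL1R1 gave -0.11 from Day 8 to Day 10 and 2.42 from Day 10 to Day 12, and IL1RAP 1.76. The robust GLM gave 0.38 and 0.86 for them in the second interval. RELA gave -0.18 with library size alone, -0.0078 in females and -0.015 without d08_m_103 from Day 8 to Day 10, and -0.23 in females in the 2 other comparisons. IL1B gave -0.37 in females from Day 8 to Day 12. Library size alone moved the median of all genes to -0.15 and 0.24, from 0.03 and 0.04.

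Among the relations, IL1B gave 0.44 with IL1R1 and 0.59 with IL1RAP on CPM without log2, and 0.30 and 0.42 without d10_f_433 and d10_m_435. With each embryo left out in turn they ran from -0.60 to 0.019 and from -0.41 to 0.18. IL1B with NFKBIA gave -0.42 with library size alone and -0.96 within the 6, and ran from -0.24 to 0.58. IL1B2 with IL1R1 gave -0.030 with a prior count of 0.5, -0.019 with library size alone and -0.53 within the 6, and ran from -0.37 to 0.29. IL1B2 gave -0.56 with IL1RAP and -0.50 with NFKBIA within the 6, and with IL1RAP ran from -0.18 to 0.43. Depth limits IL1B on Days 8 and 12 and IL1R1 on Day 8, where most embryos were at the floor, and IL1RAP on Day 8, where 4 of 10 were.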
